A study of Mus musculus with 9 samples.

Results

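The EGF receptor family and its ligands were followed in whole lungs of mice after 6 months of tobacco aerosol exposure. They comprised 10 genes chosen by name: 7 ligands (Ereg, Areg, Hbegf, Tgfa, Egf, Btc and Epgn) and 3 receptors (Egfr, Erbb2 and Erbb3). Non-control array probes carrying a RefSeq accession of these genes numbered 14, among 56605 non-control probes in all. Of these, 12 probes for 9 genes passed the filter on dim probes, which left 37258 probes and 16593 named genes for testing. Epgn and the second Btc probe were not well above background on any array. The gene set had been proposed because Ereg differed between cigarette smoke and IQOS, so every Ereg value, and every comparison of cigarette smoke with IQOS, is given below as a description without a test.

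The mice were male C57BL/6J animals, 12 weeks old at the start. They breathed 3.5% cigarette smoke (CS), 3.5% aerosol of IQOS, a device that heats tobacco without burning it, or fresh air. Each group had 3 single-colour Agilent arrays of total lung RNA, and the labels do not say how many animals each array stands for, so p-values measure only the spread between these samples. The scaling value of the arrays, the 75th percentile of the signal, lay between 973 and 1098 units. On each array 64.3 to 68.8% of probes were well above background and no spot was saturated, and any pair of arrays correlated at 0.983 to 0.994 across probes. The number of arrays, 3 a group, limits the precision. The CS and air arrays shared slide 1 and the IQOS arrays were alone on slide 2, so slide and IQOS cannot be told apart. The CS arrays were all in row 2 of the slide, with air array 3, while air arrays 1 and 2 and the IQOS arrays were in row 1. A fit with slide row as a covariate therefore sets CS against air array 3 alone and IQOS against air arrays 1 and 2. Spots marked as outliers numbered 211 to 220 on the CS arrays, 181 on air array 3 and 62 to 96 on the arrays in row 1. The alveolar markers Sftpc and Ager and the club cell marker Scgb1a1 were well above background on every array.

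The EGF family ligands are made as membrane proteins whose outer part carries the EGF-like domain. Metalloproteases of the ADAM family cut them loose, and the freed ligand makes receptors pair, which switches on the RAS-ERK and PI3K-AKT chains inside the cell. In the lung this pathway is best known for repair of airway and alveolar epithelium after injury and for mucus production. EGF, TGF-alpha, amphiregulin and epigen bind Egfr. Heparin-binding EGF, betacellulin and epiregulin bind both Egfr and Erbb4. Erbb2 has no known ligand of its own, and Erbb3 binds neuregulins and signals through its partner.

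Levels below are scaled signals, that is a probe's signal divided by the 75th percentile of its array. A scaled signal depends on the probe, so levels were compared between arrays and never between genes. Fold changes are ratios of geometric means. Adjusted p-values are from limma with Benjamini-Hochberg adjustment over all 37258 tested probes, and a gene was called when its brightest probe had an adjusted p under 0.05. A whole-lung sample cannot tell fewer cells of a type from less RNA per cell.

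Smoke-exposed lungs differed from air lungs in ligand transcripts. Areg and Hbegf rose in CS lungs, Ereg stood 10.4-fold higher there, and Tgfa, Btc, Egf and the 3 receptors gave no call. With IQOS aerosol no measured member was called.

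Ereg encodes epiregulin, a ligand made by epithelial cells and macrophages during inflammation and repair. Its scaled signal was 0.427, 0.538 and 0.365 on the CS arrays, 0.0128, 0.0347 and 0.0398 on the IQOS arrays, and 0.0293, 0.0508 and 0.0499 on the air arrays. Every CS array was above every other array, whereas the IQOS and air arrays overlapped. The probe was well above background on all 3 CS arrays but on 2 of 3 IQOS arrays and 2 of 3 air arrays, and the lowest signal well above background on any array lay between 0.0198 and 0.0282. Its level averaged 0.444 ± 0.0876 in CS lungs and 0.0433 ± 0.0122 in air lungs (SD, n = 3 each), a log2 difference of 3.38 ± 0.43 (SE) or 10.4-fold. Against the IQOS lungs, which averaged 0.0291 ± 0.0144 (SD, n = 3), the CS lungs differed by 4.07 on the log2 scale or 16.8-fold. With normexp background correction the CS minus air difference was 2.26 and the CS minus IQOS difference 2.56. That alternative also starts from median signals and adds an offset, and the cause of the shift was not tested. The IQOS minus air difference was -0.69 ± 0.43 (SE), and it ranged from -0.997 to -0.176 as single arrays were left out.

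Areg encodes amphiregulin, an Egfr ligand made by injured epithelium and by several immune cells, including mast cells and innate lymphoid cells. Its scaled signal was 5.18, 4.03 and 2.58 on the CS arrays, 0.443, 0.705 and 0.540 on the IQOS arrays, and 0.753, 0.797 and 0.642 on the air arrays. The lowest CS array was above the highest air array, and the IQOS and air arrays overlapped. Areg averaged 3.93 ± 1.30 in CS lungs and 0.731 ± 0.0804 in air lungs (SD, n = 3 each), 5.19-fold higher with a log2 difference of 2.38 ± 0.26 (SE; 95% interval 1.77 to 2.98; limma adjusted p = 0.00483). The call held in each of the 21 alternative settings, with adjusted p from 0.00219 to 0.0424. IQOS lungs averaged 0.563 ± 0.133 against 0.731 ± 0.0804 in air lungs (SD, n = 3 each), a difference that gave no call (log2 -0.40 ± 0.26, limma adjusted p = 0.413). CS lungs lay 6.84-fold above IQOS lungs.

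Hbegf encodes heparin-binding EGF-like growth factor, which is made by epithelium, macrophages and smooth muscle. Its scaled signal was 9.24, 8.85 and 7.42 on the CS arrays, 4.37, 4.31 and 3.18 on the IQOS arrays, and 5.38, 4.66 and 4.29 on the air arrays. The CS arrays again stood clear of all others. CS lungs averaged 8.51 ± 0.958 and air lungs 4.78 ± 0.555 (SD, n = 3 each), 1.78-fold higher with a log2 difference of 0.83 ± 0.15 (SE; limma adjusted p = 0.0178). The direction was the same throughout, but the call ended without air array 2 (adjusted p = 0.0501), without air array 3 (0.0531) or without CS array 2 (0.064), and with slide row as a covariate (0.0987, log2 difference 0.98). The 1.78-fold difference also fell short of the 2-fold limit used as an alternative. Against IQOS lungs, CS lungs were 2.16-fold higher. IQOS lungs did not pass the test against air lungs (log2 -0.28 ± 0.15, limma adjusted p = 0.319).

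**Figure D1:**
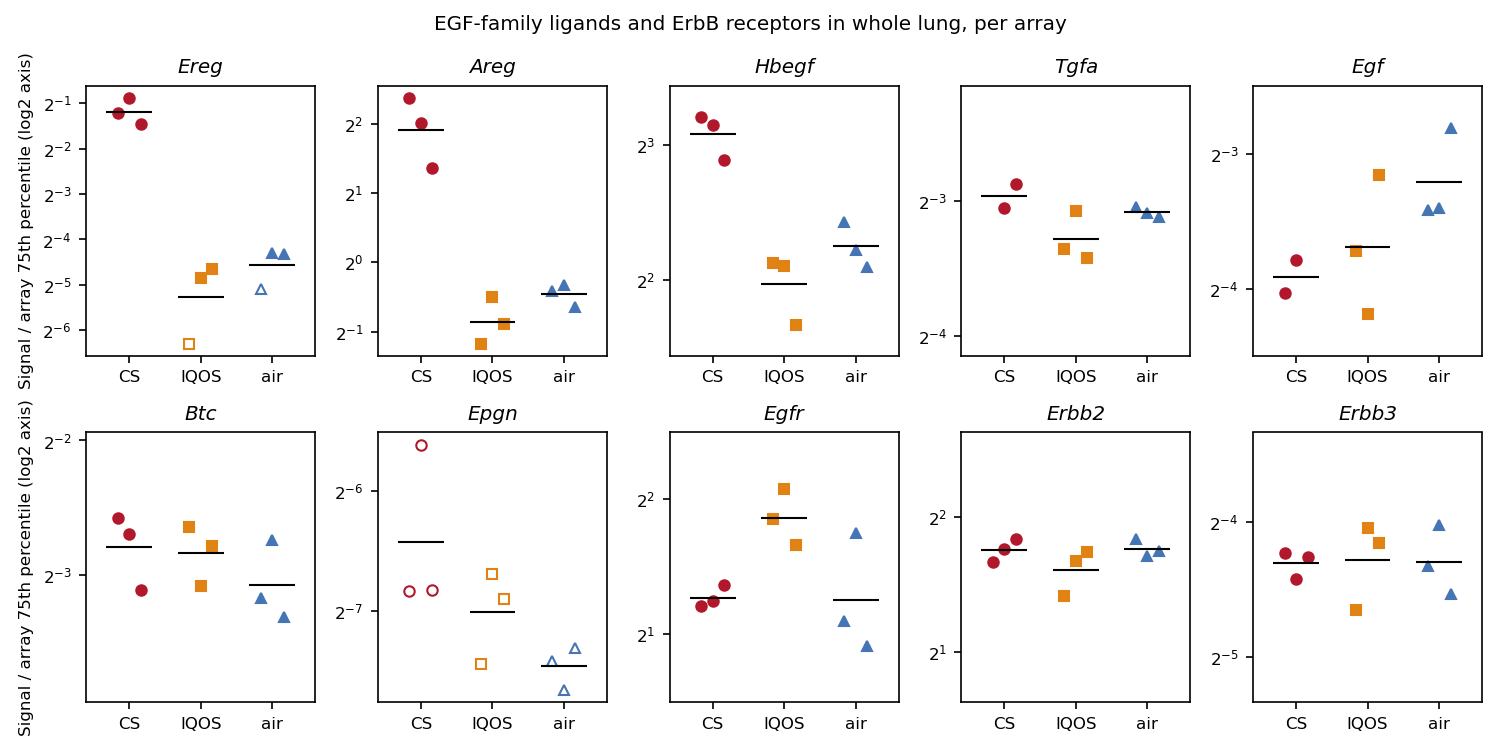
Scaled signal (signal over the 75th percentile of its array, log2 axis) of the brightest probe of each of the 10 genes on the CS, IQOS and air arrays; bars are geometric means and open symbols are arrays on which the probe was not well above background. The 3 CS arrays stand apart for Ereg, Areg and Hbegf, and Tgfa and Egf have 2 CS points because a spot was marked as an outlier.

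None of the 4 remaining ligands was called. Tgfa, the classic autocrine ligand of Egfr, had 0.120 and 0.136 on CS arrays 2 and 3, 0.0973, 0.119 and 0.0933 on the IQOS arrays, and 0.121, 0.117 and 0.115 on the air arrays. Its spot on CS array 1 was marked as an outlier by the scanner software and left out; kept, it would read 2.48. Both exposed groups overlapped the air arrays, while the 2 CS values lay just above the IQOS values. Neither CS (log2 0.12 ± 0.12, limma adjusted p = 0.541) nor IQOS (log2 -0.20 ± 0.10, limma adjusted p = 0.315) differed from air by the test.

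Egf, the founding ligand of the family, had 0.0613 and 0.0726 on CS arrays 1 and 2, 0.0763, 0.0550 and 0.112 on the IQOS arrays, and 0.0938, 0.0949 and 0.143 on the air arrays. The 2 CS values used were below all air values, and the spot left out on CS array 3, marked as an outlier, read 0.233, above them. The log2 difference was -0.70 ± 0.31 (SE) in CS lungs and -0.48 ± 0.28 in IQOS lungs against air lungs, with limma adjusted p of 0.193 and 0.365; with outlier spots kept, the CS difference was -0.10. Slc12a3 and Pth, markers of kidney and parathyroid, were not well above background on any array, and the kidney marker Umod was well above it on 1 IQOS array only. They belong to 6 listed markers of salivary gland, kidney and other non-lung sources of Egf, of which 2 others passed the dim-probe filter. Those 2 summed to 0.659 to 0.785 on the CS arrays, 0.780 to 0.894 on the IQOS arrays and 0.626 to 0.747 on the air arrays. The IQOS sums lay above the air sums without overlap, while the CS and air sums overlapped. Their median log2 difference from air was 0.41 with IQOS and -0.21 with CS. Neither was called with CS or IQOS. An unadjusted limma p under 0.05 was found for 1 of the 2 with IQOS and 0 with CS. Their part in the Egf values was not tested.

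Btc, betacellulin, had 0.168, 0.155 and 0.116 on the CS arrays, 0.161, 0.119 and 0.146 on the IQOS arrays, and 0.111, 0.150 and 0.101 on the air arrays, so all groups overlapped. Its log2 differences from air lungs were 0.28 ± 0.20 in CS lungs (95% interval -0.17 to 0.73) and 0.24 ± 0.20 in IQOS lungs (95% interval -0.21 to 0.69), both without a call. Epgn, epigen, read 0.00875 to 0.0203 on the CS arrays, 0.00574 to 0.00964 on the IQOS arrays and 0.00494 to 0.00631 on the air arrays, all at background level, so no fold is given.

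None of the 3 receptors was called in CS lungs. Egfr was measured by 3 probes, and its brightest probe had 2.30, 2.36 and 2.56 on the CS arrays, 3.61, 4.21 and 3.15 on the IQOS arrays, and 2.13, 3.36 and 1.88 on the air arrays. The CS arrays lay close together, the IQOS arrays lay above all CS arrays, and air array 2 lay within the IQOS range while the other air arrays were below the CS arrays. CS lungs averaged 2.41 ± 0.136 and air lungs 2.46 ± 0.793 (SD, n = 3 each), a log2 difference of 0.02 ± 0.21 (SE; 95% interval -0.46 to 0.50; limma adjusted p = 0.969).

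In IQOS lungs Egfr averaged 3.65 ± 0.532 against 2.46 ± 0.793 in air lungs (SD, n = 3 each), 1.52-fold higher, with no call (log2 0.61 ± 0.21, limma adjusted p = 0.145). The other probes gave log2 differences of 0.75 ± 0.24 (limma adjusted p = 0.132) and 0.50 ± 0.17 (limma adjusted p = 0.149). All 3 probes read high on air array 2. Without that array the log2 difference was 0.86 and the limma adjusted p 0.035, the one setting in which a member was called with IQOS. CS lungs lay below IQOS lungs by 0.59, 0.72 and 0.51 on the log2 scale at the 3 probes without overlap. With slide row as a covariate the difference at the brightest probe was -0.08. That fit takes the row shift from air array 3 against the other air arrays, which include the high air array 2.

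**Figure D2:**
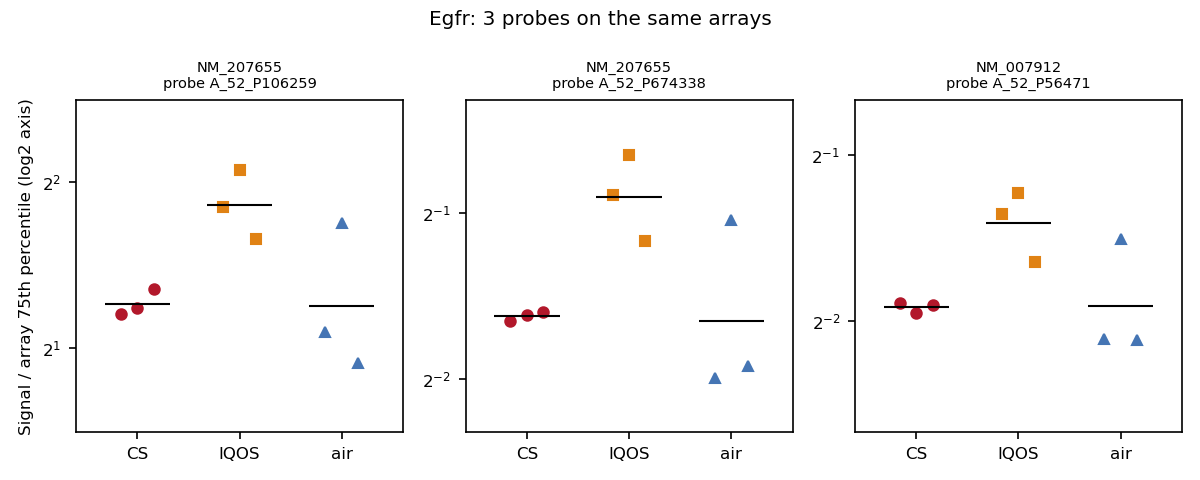
Scaled signal (log2 axis) at the 3 Egfr probes on the CS, IQOS and air arrays; bars are geometric means. At each probe the IQOS arrays lie above the CS arrays, and air array 2 (middle triangle) lies apart from the other air arrays.

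Erbb2, the shared partner of the other receptors, had 3.18, 3.39 and 3.58 on the CS arrays, 2.67, 3.19 and 3.35 on the IQOS arrays, and 3.57, 3.28 and 3.36 on the air arrays. The groups overlapped, and the 95% interval of the log2 difference from air lungs was -0.23 to 0.21 for CS and -0.38 to 0.06 for IQOS (limma adjusted p = 0.961 and 0.376). The second Erbb2 probe gave log2 differences of -0.05 with CS and -0.19 with IQOS (limma adjusted p = 0.759 and 0.275), and its IQOS arrays (0.699 to 0.851) lay below its air arrays (0.872 to 0.934) without overlap. Erbb3, the neuregulin receptor without strong kinase activity, had 0.0533, 0.0466 and 0.0523 on the CS arrays, 0.0397, 0.0607 and 0.0562 on the IQOS arrays, and 0.0499, 0.0617 and 0.0432 on the air arrays. Its log2 differences from air lungs were -0.01 ± 0.18 in CS lungs and 0.01 ± 0.18 in IQOS lungs, again without a call.

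Of the 8 tested members other than Ereg, 2 were called with CS, both higher (Areg and Hbegf). Over all tested genes 11.7% were called in either direction with CS and 5.6% were called higher. With IQOS 0 of the 8 were called by limma, where 2.87% of all genes were called. An unadjusted limma p under 0.05 was found for 1 of the 8 (Egfr), where 20.3% of all genes had one. Counted over probes instead of genes, 10.3% were called with CS (4.63% higher and 5.68% lower) and 3.72% with IQOS (2.74% higher and 0.98% lower). Of the 8, 2 lay above air without overlap in CS lungs, where 17.2% of all genes did, and 1 (Egf, with 2 CS arrays) lay below, where 21% did. In IQOS lungs 0 lay wholly above or below air by the brightest probe, where 13% and 15.1% of all genes did. Both comparisons share the air arrays.

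**Figure D3:**
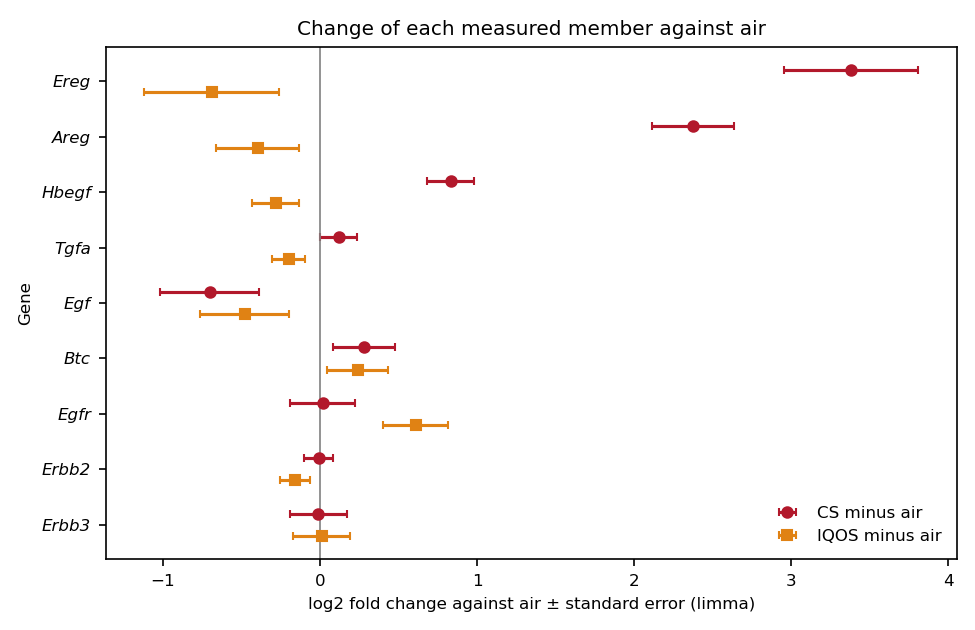
log2 fold change against air of the 9 measured genes in CS lungs (circles) and IQOS lungs (squares), with the standard error of the limma fit. Ereg at 3.38, Areg at 2.38 and Hbegf at 0.83 lie to the right in CS lungs, and Egfr at 0.61 is the highest value in IQOS lungs.

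Epgn, Ereg, Areg and Btc lie next to each other among protein-coding genes on mouse chromosome 5, in that order, in the RefSeq annotation. Ereg and Areg, the inner pair, had the largest differences between CS and air lungs in the family, while Btc gave no call and Epgn was not above background. Promoter windows from RefSeq (GRCm38.p6), each reaching from 250 bases before to 50 bases after the gene start, were held for 7 of the 10 genes. Ereg, Hbegf and Erbb3 had no match. The windows of Areg, Btc and Epgn are shown, since these neighbours differ in their values; capitals mark matches to the motifs searched.
Areg, chr5:91139349-91139648, + strand: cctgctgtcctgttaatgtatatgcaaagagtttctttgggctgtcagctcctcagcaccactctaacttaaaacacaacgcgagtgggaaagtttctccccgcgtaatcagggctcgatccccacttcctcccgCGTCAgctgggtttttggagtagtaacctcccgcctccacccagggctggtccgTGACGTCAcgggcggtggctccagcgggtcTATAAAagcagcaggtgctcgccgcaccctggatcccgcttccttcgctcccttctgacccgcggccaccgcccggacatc
Btc, chr5:91402945-91403244, - strand: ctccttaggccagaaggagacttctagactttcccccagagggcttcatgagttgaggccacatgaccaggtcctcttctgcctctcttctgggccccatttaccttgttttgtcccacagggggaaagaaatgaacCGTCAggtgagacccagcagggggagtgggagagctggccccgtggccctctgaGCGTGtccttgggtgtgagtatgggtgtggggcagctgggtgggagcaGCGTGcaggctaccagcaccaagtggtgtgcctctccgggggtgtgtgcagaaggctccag
Epgn, chr5:91027267-91027566, + strand: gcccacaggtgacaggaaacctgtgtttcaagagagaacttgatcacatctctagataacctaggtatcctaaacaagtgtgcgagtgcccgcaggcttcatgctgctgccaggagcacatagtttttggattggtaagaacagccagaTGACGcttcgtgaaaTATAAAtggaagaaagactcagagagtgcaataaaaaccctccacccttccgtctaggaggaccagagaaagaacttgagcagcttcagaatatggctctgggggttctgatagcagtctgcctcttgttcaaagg

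The motifs searched on both strands were the AhR core GCGTG, the AP-1 site TGANTCA, the core of the cAMP response element TGACG, the NRF2 element TGACNNNGC and the TATA box TATAAA. The Areg window held 3 matches to the cAMP response core, at 115 to 111, 61 to 57 and 58 to 54 bases before the start, and a TATA box at 31 to 26 bases before it. The matches at 61 to 57 and 58 to 54 overlap on opposite strands and form the palindrome TGACGTCA, a motif added after the window was seen, which 588 of 32851 windows of the same length hold (1.79%). The core alone is in 20.8% of windows and the TATA box in 13.6%. The Btc window held 2 AhR cores, a motif present in 32.4% of windows, and 1 cAMP response core. The Epgn window held 1 cAMP response core and a TATA box at 86 to 81 bases before the start. No AP-1 site (7.81% of windows) or NRF2 element (12.4%) was in any of the 3 windows, and the Egfr window held none of the motifs. A match describes letters only and does not show that a factor bound there.

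The genes whose pattern over the 9 arrays was most like that of Ereg were named by the smallest mean absolute difference in log2 level, each gene centred on its own mean, among 16501 genes. Hnf4a, a nuclear receptor best known from liver and gut, was closest, with a mean difference of 0.24. Its scaled signal was 0.388, 0.633 and 0.587 on the CS arrays, 0.0125, 0.0328 and 0.0464 on the IQOS arrays, and 0.0299, 0.0855 and 0.0545 on the air arrays. Like Ereg, it was well above background on 2 of 3 IQOS arrays and 2 of 3 air arrays. The next were Prss22, a serine protease of airway epithelium (0.51), Stra6l, a receptor for retinol-binding protein (0.52), and Artn, a growth factor of the GDNF family (0.53). Areg was in place 5 (0.58) and the transport ATPase Atp13a5 in the place after it (0.65). Hbegf was in place 263 (1.22), and the next member, Btc, in place 3315. Prss22 and Atp13a5 were not well above background on any IQOS or air array, so their places rest on background readings on 6 of the 9 arrays. That all these genes were high on the CS arrays follows from how they were chosen.

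**Figure D4:**
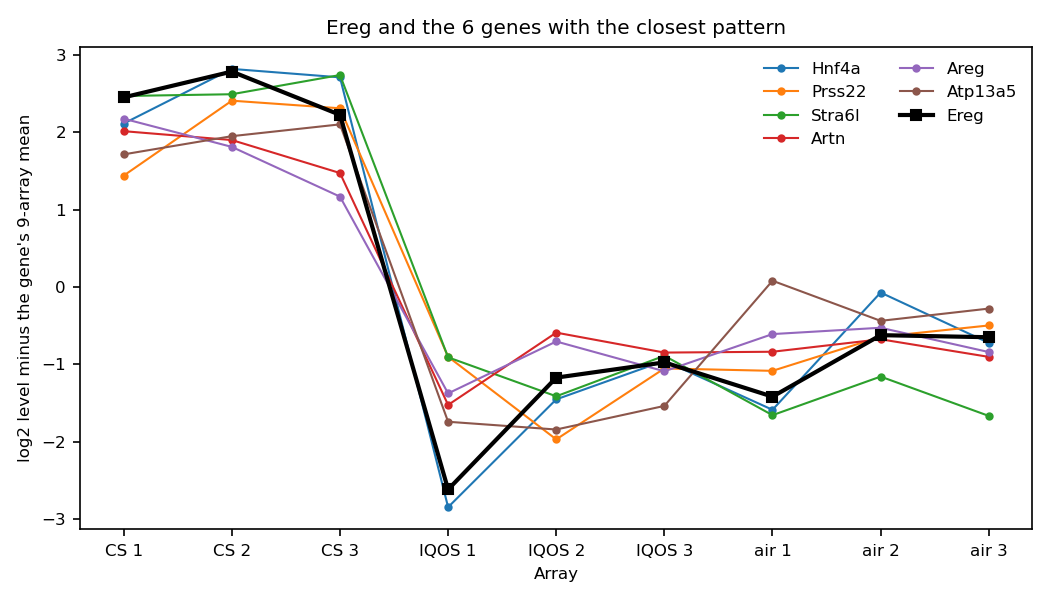
log2 level of Ereg (black squares) and of the 6 genes nearest to it, each minus its own mean over the 9 arrays, by array. All curves are high on the 3 CS arrays, as the choice of genes fixes; Ereg and Hnf4a are not well above background on 1 IQOS and 1 air array, and Prss22 and Atp13a5 on none of the IQOS and air arrays.

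Beyond the 10 members, 75 further genes of the pathway were taken by role, with earlier results of these data known, and 73 were tested. With CS 9 were called higher and 3 lower, and with IQOS 1 was called higher and 2 lower, where 5.6% and 6.12% of all genes were called higher and lower with CS and 1.99% and 0.886% with IQOS. At an unadjusted p under 0.05 the share of all genes was 31.2% with CS and 20.3% with IQOS. With slide row as a covariate 4 of the 12 CS calls stood (Nrg1, Socs3, Ptpn1 and Ier3, limma adjusted p = 0.0212, 0.0142, 0.0245 and 0.038), and none of the 3 IQOS calls did (limma adjusted p = 0.0747 to 0.109).

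Among the other ligands, Nrg1 rose and Nrg2 fell in CS lungs. Nrg1, a ligand of Erbb3 and Erbb4 made by lung mesenchyme and epithelium, had 3.52, 3.82 and 3.79 on the CS arrays, 1.71, 1.91 and 1.59 on the IQOS arrays, and 2.27, 2.26 and 1.88 on the air arrays. The CS arrays were above all others. Nrg1 rose in CS lungs (log2 0.80 ± 0.10, limma adjusted p = 0.00607), all 3 of its probes were called, and the call held without each array in turn; in IQOS lungs it gave no call (log2 -0.29, limma adjusted p = 0.14), nor did its other probes (log2 -0.65 and -0.40, limma adjusted p = 0.0704 and 0.0616), which lay below air without overlap. Nrg2, a neuregulin best known from the nervous system, had 0.577, 0.578 and 0.613 on the CS arrays, 0.712, 0.619 and 0.538 on the IQOS arrays, and 1.02, 0.824 and 1.15 on the air arrays. Both exposed groups were below air at this probe. Nrg2 fell in CS lungs (log2 -0.75 ± 0.14, limma adjusted p = 0.0194) and in IQOS lungs (log2 -0.68, limma adjusted p = 0.0425), but the CS call ended without air array 1, air array 3 or CS array 2, and the IQOS call ended without any array other than air array 2. The second Nrg2 probe was left out by the dim-probe filter. It averaged 0.0361 in CS lungs, 0.0199 in IQOS lungs and 0.0261 in air lungs, and its CS and air arrays overlapped. Nrg4 was tested without a call, and Erbb4 was not well above background.

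Of the 9 tested genes that cut and release the ligands or control that step, 1 was called with CS and 0 with IQOS, by limma. Over all tested genes 11.7% and 2.87% were called. An unadjusted limma p under 0.05 was found for 4 and 1 of the 9, where 31.2% and 20.3% of all genes had one. Timp3, an inhibitor of ADAM proteases, rose in CS lungs (96.2 ± 1.76 in CS lungs and 73.8 ± 5.11 in air lungs, SD, n = 3 each; log2 0.39 ± 0.07, limma adjusted p = 0.0219), a call that ended without air array 2, air array 3, CS array 2 or CS array 3. The median log2 difference of the 9 genes was 0.03 with CS and -0.08 with IQOS, beside -0.02 and -0.01 for all tested genes. The members went both ways: Adam12, a metalloprotease named after its values were seen, averaged 0.0372 ± 0.00299 in CS lungs, 0.0707 ± 0.00350 in IQOS lungs and 0.0489 ± 0.00936 in air lungs (SD, n = 3 each), without a call in either (limma adjusted p = 0.108 with CS and 0.0663 with IQOS).

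The receptor adaptors and the RAS-ERK chain gave 1 call in 14 tested genes, with CS, where 11.7% of all tested genes were called. It was Gab1, a docking protein (log2 -0.27 ± 0.06 with CS, limma adjusted p = 0.0321), and that call ended without any one of the CS or air arrays. In the PI3K-AKT and STAT arm 11 genes were tested. Stat3, a transcription factor downstream of receptors for cytokines and growth factors, rose in CS lungs (20.3 ± 1.79 in CS lungs and 14.5 ± 1.16 in air lungs, SD, n = 3 each; log2 0.48 ± 0.09, limma adjusted p = 0.0192), and the call ended without air array 1, air array 3 or CS array 2. Plcg1, a phospholipase recruited to active receptors, fell in CS lungs (log2 -0.43 ± 0.11, limma adjusted p = 0.0444), and 7 of the 9 arrays each ended that call when left out. Stat5a, a relative of Stat3, was the single gene of these lists called higher with IQOS (4.02 ± 0.142 in IQOS lungs and 3.14 ± 0.0920 in air lungs, SD, n = 3 each; log2 0.36, limma adjusted p = 0.0311), and the call ended without any of the IQOS or air arrays.

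Feedback inhibitors and turnover factors of the receptors gave 2 calls among 18 tested genes, both higher in CS lungs and both held without each array in turn. Over all tested genes 11.7% were called with CS in either direction, and 5.6% were called higher. Socs3, an inhibitor of cytokine receptor and STAT signalling, had 29.1, 23.3 and 26.9 on the CS arrays, 14.1, 10.1 and 11.0 on the IQOS arrays, and 8.09, 8.76 and 6.54 on the air arrays. The IQOS arrays lay between the CS and air arrays. Socs3 rose in CS lungs (log2 1.77 ± 0.16, limma adjusted p = 0.0028), and the IQOS difference of 0.59 on the log2 scale was not called (limma adjusted p = 0.0832). Ptpn1, a tyrosine phosphatase that acts on Egfr among other receptors, averaged 26.9 ± 0.594 in CS lungs and 15.8 ± 1.58 in air lungs (SD, n = 3 each; log2 0.77 ± 0.08, limma adjusted p = 0.00419). The Sprouty, Spred, Dusp and Cbl genes on the list, and Errfi1, a direct Egfr inhibitor, gave no call.

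Of 18 transcripts known to be induced through ERK, 4 were called higher with CS and none lower, where 5.6% and 6.12% of all tested genes were. An unadjusted limma p under 0.05 was found for 12 of the 18, and for 31.2% of all tested genes. Their median log2 difference was 0.72 with CS and 0.08 with IQOS. Ier3, an early response gene linked to cell survival, averaged 15.3 ± 0.579 in CS lungs and 7.01 ± 1.004 in air lungs (SD, n = 3 each; log2 1.13 ± 0.13, limma adjusted p = 0.00491), and its call held without each array. Maff, a small Maf transcription factor (log2 1.64 ± 0.31, limma adjusted p = 0.0195), and Plaur, the urokinase receptor (log2 0.98 ± 0.18, limma adjusted p = 0.0184), lost their calls without air array 1, air array 3 or CS array 2. Egr2, an early growth response factor (log2 0.75 ± 0.17, limma adjusted p = 0.0359), lost its call without any of 7 arrays. Many stimuli other than EGF receptor ligands induce these transcripts.

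With IQOS 1 ERK-induced transcript was called, in the lower direction. Fosl1, a member of the AP-1 family, had 0.273, 0.384 and 0.454 on the CS arrays, 0.0204, 0.0688 and 0.0550 on the IQOS arrays, and 0.239, 0.258 and 0.362 on the air arrays. The IQOS arrays lay below all others, which overlapped. The probe was well above background on all CS and air arrays but on 2 of 3 IQOS arrays, so the size of the difference rests partly on a reading at background. Fosl1 fell in IQOS lungs (log2 -2.72 ± 0.43, limma adjusted p = 0.0217), and the call ended without any one of the air arrays. CS lungs did not pass the test against air lungs (log2 0.36 ± 0.43, limma adjusted p = 0.619).

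**Figure D5:**
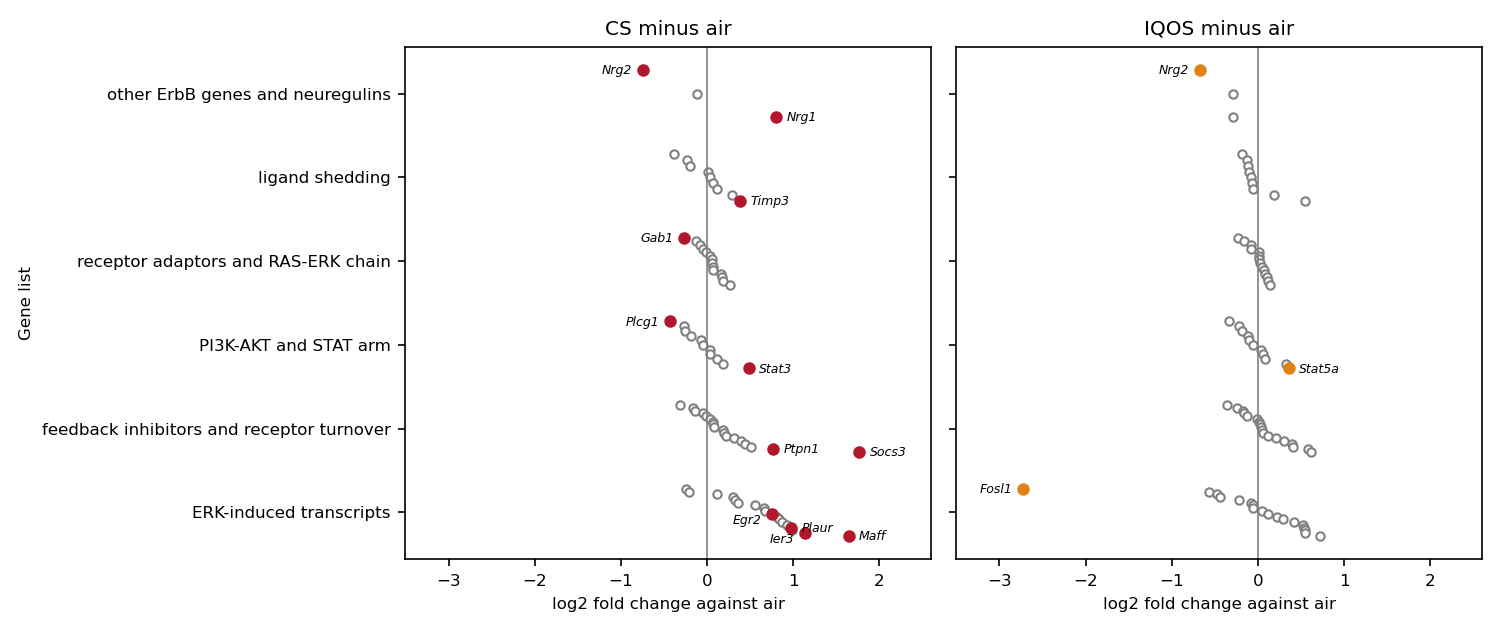
log2 fold change against air of the 73 tested pathway genes in CS lungs (left) and IQOS lungs (right), by list; filled symbols are genes called at a limma adjusted p under 0.05. Most called genes lie to the right in CS lungs, led by Socs3 at 1.77 and Maff at 1.64, and Fosl1, not well above background on 1 IQOS array, lies to the left in IQOS lungs.

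Markers of some lung cell types moved with the CS group, and their part in the values above was not tested. For the counts below, 5.6% of all tested genes were called higher and 6.12% lower with CS. With IQOS 1.99% were called higher. The summed scaled signal of 8 alveolar macrophage markers was 264 to 354 on the CS arrays, 147 to 170 on the IQOS arrays and 130 to 151 on the air arrays, and 5 of the 8 were called higher with CS. The sum of 8 neutrophil markers was 334 to 748 on the CS arrays, 174 to 432 on the IQOS arrays and 183 to 230 on the air arrays, with 1 of 8 called higher with CS. An unadjusted limma p under 0.05 with CS was found for 6 of these 8, where 31.2% of all tested genes had one. Their median log2 difference from air was 2.23 with CS and 1.09 with IQOS. Summed fibroblast and smooth muscle markers were lower, 99.8 to 132 on the CS arrays, 134 to 149 on the IQOS arrays and 155 to 174 on the air arrays, with 3 of 7 called lower with CS. Summed B cell markers were 4.78 to 9.26 on the CS arrays, 8.90 to 18.9 on the IQOS arrays and 11.7 to 23.7 on the air arrays, with 2 of 5 called lower with CS. Club cell markers summed to 1214 to 1453 on the CS arrays, 1169 to 1402 on the IQOS arrays and 1000.2 to 1172 on the air arrays, and ciliated cell markers to 63.2 to 65.0 on the CS arrays, 43.8 to 55.0 on the IQOS arrays and 56.2 to 59.8 on the air arrays, with no call in either list. Markers of T cells and innate lymphoid cells, another source of Areg, summed to 15.3 to 19.8 on the CS arrays, 19.0 to 24.1 on the IQOS arrays and 16.5 to 17.9 on the air arrays. Of these 8, 1 was called higher with CS (Icos) and 2 with IQOS (Cd4 and Icos), named after their values were seen. Mast cell and basophil markers, of cells that make Areg, summed to 11.0 to 13.8 on the CS arrays, 8.66 to 12.1 on the IQOS arrays and 9.60 to 12.4 on the air arrays, with 0 of 8 called by limma and none at an unadjusted p under 0.05 with CS. The alveolar type I and type II markers overlapped between CS and air arrays or were slightly higher on CS arrays (450 to 497 and 1161 to 1231 on CS, 423 to 510 and 1055 to 1165 on IQOS, 450 to 504 and 1147 to 1161 on air), with no call.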

How the data were processed

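Lung RNA was measured on Agilent arrays. The authors deposited spot intensities as the processed signal of Agilent Feature Extraction, which is already background-subtracted (version 10.7.1.1 in the submitters' processing notes). The series matrix deposited by the authors holds ratios of the same signals to the 75th percentile of each array; their log2 differed from the values used here by at most 0.014 for signals of at least 0.1. Here log2 processed signal minus the log2 75th percentile of each array was fitted with limma 3.58.1 (R 4.3.3, data.table version 1.17.8) over all 9 arrays. Control probes and spots marked as outliers were left out. A probe passed the dim-probe filter if any group had it well above background on all its arrays with a value. At least 2 values in each group were also needed. Ereg passed through its CS arrays only. Probes were named through their RefSeq accessions. Probes of a gene were represented by the brightest, and every probe of the members was read. Medians stood in for mean signals in the normexp alternative. Scripts were tested on simulated data.

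The members and gene lists were chosen with earlier results of these data known. The text names all 10 members with every probe, the called genes of each pathway list and the 6 genes most like Ereg; other genes are named by their role. Planned protein comparisons were left out because no protein sequences were used here. Alternatives covered background correction, centring, dim-probe filter, series matrix values, eBayes settings, replicate block, slide row, the samples fitted, thresholds and leaving out each array.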

Additional observations from a re-analysis of the deposited data

How the results depend on the processing

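Across the alternatives no member reversed a called direction, and Areg kept its CS call in all of them. Hbegf lost it in 4 at the same threshold, and its 1.78-fold difference also fell short of the 2-fold limit. Probes called with CS numbered 3840, and 1541 with no filter on dim probes, 311 with slide row as a covariate, 575 at 2-fold or more, 7098 at an adjusted p under 0.1, and 731 to 3372 without single arrays. Probes called with IQOS numbered 1387, and 2621 with normexp, 780 with median centring, 356 with no filter, 287 with slide row, 444 with the 2 groups alone, 95 at 2-fold or more, 3281 at an adjusted p under 0.1, and 125 to 1115 without single arrays. Members called with CS (2) were 1 with slide row and 1 at 2-fold or more, and 1 to 2 without single arrays; with IQOS (0) they were 0 to 1. Pathway genes called with CS (12) were 19 with intensity trend and robust eBayes, 4 with slide row, 3 at 2-fold or more, 21 at an adjusted p under 0.1, and 4 to 15 without single arrays. Pathway genes called with IQOS (3) were 7 with normexp, 0 with no filter, 5 with trend and robust eBayes, 0 with slide row, 0 with the 2 groups alone, 1 at 2-fold or more, 9 at an adjusted p under 0.1, and 0 to 3 without single arrays. The fit with slide row sets CS against air array 3 alone. For IQOS against air it equals the fit without air array 3, with 287 probes called in both. The cause of the shifts was not tested. Replicate numbers were only shared: deviations of same-numbered arrays correlated at -0.08 to 0.20, and with the replicate number as a block 540 probes and 1 pathway gene were called with IQOS, with no change of call for any member. An alternative chosen after seeing the data kept outlier spots and moved the CS minus IQOS log2 difference of Tgfa to 1.74 and of Egf to 0.38, each resting on 1 spot. Signal over background limits Ereg, Erbb3, Tgfa, Egf and Epgn.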

Other observations

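The neighbours of the epiregulin gene were read as a description, in a window chosen after values were seen. Walking along mouse chromosome 5 in the RefSeq order, Cxcl1 and Cxcl2, chemokines that draw neutrophils, lie before Epgn, and Parm1, a membrane mucin, follows Btc. Cxcl1 averaged 2.26 ± 0.941 in CS lungs, 0.515 ± 0.0406 in IQOS lungs and 0.394 ± 0.0393 in air lungs (SD, n = 3 each), a CS minus air log2 difference of 2.41. Cxcl2 averaged 0.161 ± 0.0307 in CS lungs, 0.0419 ± 0.0152 in IQOS lungs and 0.0412 ± 0.00584 in air lungs (SD, n = 3 each), a difference of 1.96. Parm1 averaged 6.38 ± 0.568 in CS lungs, 3.71 ± 0.926 in IQOS lungs and 3.01 ± 1.29 in air lungs (SD, n = 3 each), a difference of 1.16. Mthfd2l, a mitochondrial folate enzyme between Cxcl2 and Epgn, averaged 0.829 ± 0.0198 in CS lungs, 0.799 ± 0.0187 in IQOS lungs and 0.907 ± 0.0583 in air lungs (SD, n = 3 each), a difference of -0.13. Farther before Epgn, Cxcl5 averaged 2.74 ± 0.652 in CS lungs, 3.07 ± 2.22 in IQOS lungs and 0.798 ± 0.821 in air lungs (SD, n = 3 each). Rassf6, Ppbp, Pf4 and Cxcl15 had CS minus air log2 differences of 0.83 ± 0.17, -0.04 ± 0.31, 0.40 ± 0.13 and -0.43 ± 0.16 (SE).

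The AhR target list, read for context because smoke carries ligands of that receptor, had 4 of 5 genes called higher with CS and 0 of 5 called by limma with IQOS, where 1 had an unadjusted p under 0.05. Over all tested genes 5.6% were called higher with CS, and 20.3% had an unadjusted limma p under 0.05 with IQOS. Its summed scaled signal was 128 to 142 on the CS arrays, 4.55 to 13.6 on the IQOS arrays and 3.67 to 4.33 on the air arrays.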
